A study of Rattus norvegicus with 12 samples.

Results

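The vascular growth factor axis studied here comprised 10 genes: the ligands Vegfa, Vegfb, Pgf, Angpt2 and Adm, the receptors Flt1, Kdr, Tek and Eng, and the transcription factor gene Hif1a. All 10 were on the array, and every probe set that the array annotation assigned to exactly 1 of them was taken, which gave 15 of 31099 probe sets (of 20832 assigned to a single gene). The rats were male Sprague-Dawley animals, 8 weeks old, and RNA was taken from their left hemispheres. In the MCAO group, 7 rats had the middle cerebral artery occluded and then reperfused, a surgical model of ischemic stroke. In the Sham group, 5 rats had a sham operation. Tissue was collected 24 h after reperfusion, each rat gave 1 array, and the labels name neither the side of the occlusion nor its length.

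Vegfa is the main growth and permeability factor of vessel walls and signals chiefly through the tyrosine kinase receptor Kdr, while Flt1 binds Vegfa, Vegfb and Pgf with little signal of its own and can act as a decoy. Angpt2, stored in endothelial cells, competes at the receptor Tek with the stabilising ligand Angpt1, and its release loosens the vessel wall. Adm, a vasodilator peptide, acts on the receptor Calcrl paired with a Ramp protein, Eng is an endothelial co-receptor for TGF-beta and BMP ligands, and Hif1a encodes the oxygen-regulated subunit of the factor that switches on Vegfa and Adm in low oxygen.

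In MCAO hemispheres, transcripts of Angpt2 were 2.57-fold and those of Adm 2.09-fold higher than in Sham hemispheres. Smaller rises were measured for Eng, Kdr, Flt1, Hif1a and 1 of the 2 Vegfa probe sets. Vegfb did not pass the test and had a lower mean in MCAO, and the deposited signals of Pgf and Tek were the same on all arrays to within 0.01 log2 units. Of the 15 probe sets, 14 passed the filter on low values (a log2 signal above 6.61 in at least 5 arrays) and 10 of those varied between arrays (an SD over the 12 arrays of at least 0.01). Of these 10, 8 rose and 0 fell at an adjusted p under 0.05 (limma, adjusted over all 17250 probe sets tested), where 36.9% of all varying probe sets rose and 30.7% fell. With 1 probe set per gene, 6 of 8 varying genes rose, and 0 fell, where 35.2% of all varying genes rose and 34.1% fell. Their median log2 change was 0.51, against 0.02 over all varying genes. The members were chosen with earlier results of these data known, so these shares are a description and no test of the axis. Angpt2 and Adm, counted here, passed the filter only through the MCAO arrays. The test of variation did not separate MCAO from Sham, so it favours probe sets that differ between them. Since this is whole tissue, more cells of a type and more RNA per cell cannot be told apart.

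**Figure D1:**
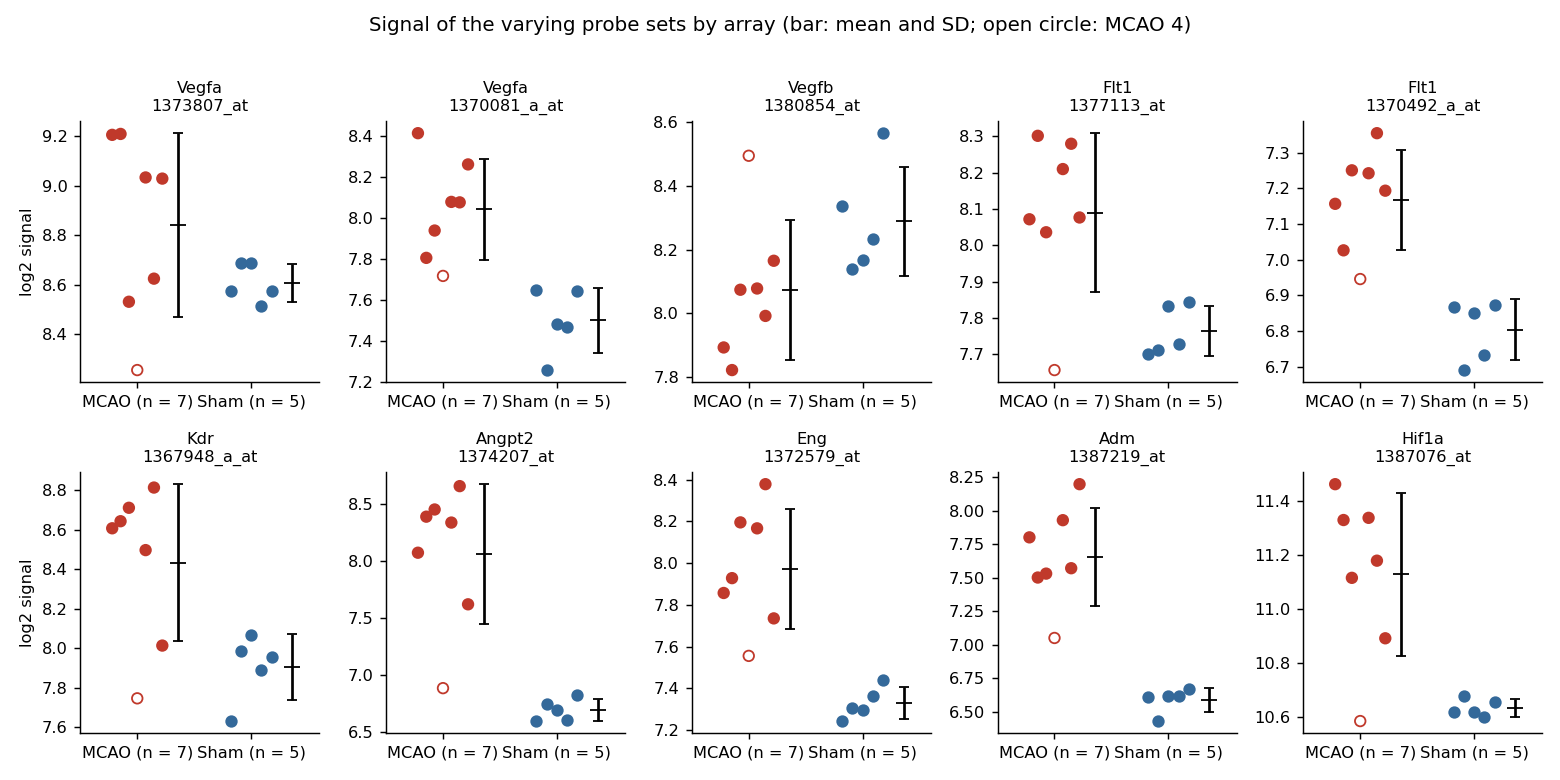
Log2 signal (vertical axes) of the 10 varying probe sets in each MCAO rat (left, n = 7) and each Sham rat (right, n = 5), with mean and SD as bars. The open circle is MCAO 4, which had the lowest signal of the MCAO rats for 9 of the 10 probe sets. The groups do not overlap for Vegfa 1370081_a_at, Flt1 1370492_a_at, Angpt2, Eng and Adm.

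The arrays had medians between 7.23 and 7.27 on the log2 scale, and the number of arrays limits the precision. On the array, all 10 neuron markers and all 10 astrocyte markers of the lists used, and 15 of 16 endothelial markers, passed the filter. The 3' minus 5' signal of the beta-actin controls, a sign of RNA integrity, lay between 1.26 and 1.47 in MCAO and between 1.40 and 1.46 in Sham (exact two-sided permutation test, p = 0.077). MCAO 4 and MCAO 2 stood closest to Sham. Over all varying genes called higher, the median difference from the Sham mean was 0.22 in MCAO 4 and 0.24 in MCAO 2, against 0.33 to 0.55 in the other MCAO rats. For the axis, 5 of the 10 varying probe sets in MCAO 4 exceeded the highest Sham value, against 8 or 9 in each of the other MCAO rats. MCAO 4 was singled out from these same values and was the lowest MCAO rat for each of the 8 probe sets that rose. Leaving it out therefore had to enlarge their changes. The changes without MCAO 4 are given below as a description only.

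Promoter windows of 300 bases, from 250 before to 50 after the start site, were available for 8 of the 10 genes in RefSeq (build GRCr8), and Angpt2 and Tek had none among them. They were searched on both strands for the core letters of the hypoxia response element that the Hif1a protein binds, ACGTG and GCGTG. Of 9 windows (Vegfa has 2), 5 held a match, and 41.6% of all 33469 windows did. Hif1a had 3 matches, of which 2 overlap on opposite strands, and 8.15% of all windows had matches at 3 or more places. Its matches begin at -229, -228 and -164 from the start site. Kdr had 2, at -145 and -103 (19.2% of all windows had matches at 2 or more places), and Flt1, Pgf and Vegfb had 1 each. The windows of Adm, Eng and Vegfa held none of these letters, which says nothing of sites elsewhere. The windows of Hif1a (chr6:98359648-98359947, plus strand), Kdr (chr14:32571813-32572112, plus strand) and Adm (chr1:174179950-174180249, plus strand) are printed because they hold the most matches and, for Adm, because it had the largest rise among the genes with a window. Capitals mark the matches.
Hif1a: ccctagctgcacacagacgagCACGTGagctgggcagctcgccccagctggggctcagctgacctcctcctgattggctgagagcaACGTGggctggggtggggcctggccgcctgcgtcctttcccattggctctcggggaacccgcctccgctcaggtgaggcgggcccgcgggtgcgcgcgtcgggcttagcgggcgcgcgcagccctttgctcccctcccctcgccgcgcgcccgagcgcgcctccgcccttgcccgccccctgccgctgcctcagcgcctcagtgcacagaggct
Kdr: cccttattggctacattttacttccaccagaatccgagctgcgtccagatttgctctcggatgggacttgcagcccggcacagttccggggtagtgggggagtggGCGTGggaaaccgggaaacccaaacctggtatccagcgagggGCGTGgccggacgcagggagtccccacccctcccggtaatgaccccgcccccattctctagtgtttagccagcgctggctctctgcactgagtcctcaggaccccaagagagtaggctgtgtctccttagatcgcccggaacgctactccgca
Adm: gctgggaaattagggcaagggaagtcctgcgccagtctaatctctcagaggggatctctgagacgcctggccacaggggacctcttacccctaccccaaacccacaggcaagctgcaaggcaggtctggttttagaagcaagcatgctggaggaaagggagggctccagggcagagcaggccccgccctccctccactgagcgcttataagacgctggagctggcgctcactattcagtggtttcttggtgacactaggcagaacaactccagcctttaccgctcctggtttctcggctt

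Angpt2 (Entrez Gene 89805) had the largest change. Its log2 signal in MCAO was 6.89 at the lowest, 8.34 at the median and 8.66 at the highest, against 6.60, 6.75, 6.70, 6.61 and 6.83 in the 5 Sham rats. All 7 MCAO values were above the Sham values, MCAO 4 by the least, and the next lowest was MCAO 7 at 7.62. The means were 8.06 ± 0.61 in MCAO and 6.70 ± 0.10 in Sham (SD, n = 7 and 5), so the MCAO rats also spread more widely. The log2 change was 1.36 ± 0.28 (SE; limma adjusted p = 0.00429), and it was 1.56 without MCAO 4. Complete separation upward was found for 18.2% of all varying probe sets and for 5 of the 10 of this axis. A rise of at least 2-fold was found for 3.44% of varying genes and for 2 of the 8 varying genes here, Angpt2 and Adm. Angpt2 and Adm passed the filter only through the MCAO arrays, since 3 of 5 Sham arrays exceeded it for each. Tek (Entrez Gene 89804), the receptor that Angpt2 binds, had a log2 signal of 8.06 on every array, with a range of 0.00065. Such near-constant signals made up 62.5% of the deposited probe sets, and no change of Tek can be read from them.

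Adm (Entrez Gene 25026) was above every Sham value in all 7 MCAO rats. The signal in MCAO was 7.05 at the lowest, 7.57 at the median and 8.20 at the highest, against 6.61, 6.43, 6.62, 6.62 and 6.67 in the 5 Sham rats. The highest value was that of MCAO 7, which was among the lowest MCAO rats for Angpt2, Kdr, Eng and Hif1a, and the lowest was again that of MCAO 4. In the promoter window of Adm no match was found. The means were 7.65 ± 0.37 in MCAO and 6.59 ± 0.09 in Sham (SD, n = 7 and 5). The groups did not overlap, and the log2 change was 1.06 ± 0.17 (SE; limma adjusted p = 0.0018), and 1.17 without MCAO 4.

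The 2 Vegfa probe sets (Entrez Gene 83785) disagreed. Probe set 1370081_a_at had 7.72, 8.08 and 8.42 in MCAO (lowest, median, highest), against 7.65, 7.26, 7.48, 7.47 and 7.64 in the 5 Sham rats. It separated the groups and rose by 0.54 ± 0.12 (SE; limma adjusted p = 0.00704), and by 0.60 without MCAO 4. The brighter probe set 1373807_at had 8.26, 9.03 and 9.21 in MCAO (lowest, median, highest), against 8.58, 8.69, 8.69, 8.51 and 8.57 in the 5 Sham rats. There the MCAO rats were divided: MCAO 1, 2, 5 and 7 lay at 9.03 or above, MCAO 3 and 6 lay within the Sham range, and MCAO 4 lay below it. Its change was 0.23 ± 0.17 (SE; limma adjusted p = 0.292), and 0.33 without MCAO 4 (adjusted p = 0.0685). When the probe sets were averaged per gene, Vegfa rose by 0.39 (limma adjusted p = 0.0279, adjusted over genes).

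Vegfb (Entrez Gene 89811), a ligand of Flt1 and not of Kdr, had a signal of 7.82, 8.07 and 8.50 in MCAO (lowest, median, highest), against 8.34, 8.14, 8.17, 8.23 and 8.57 in the 5 Sham rats. In 5 of 7 MCAO rats it was below the lowest Sham value, and MCAO 4 was the highest MCAO rat here. The change of -0.21 ± 0.12 (SE) did not pass (limma adjusted p = 0.164). Without MCAO 4 it was -0.28 and passed (limma adjusted p = 0.0267), but leaving out the highest MCAO rat had to enlarge the fall. The 2 probe sets of Pgf (Entrez Gene 94203), another Flt1 ligand, read 7.03 and 6.92 on all arrays.

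**Figure D2:**
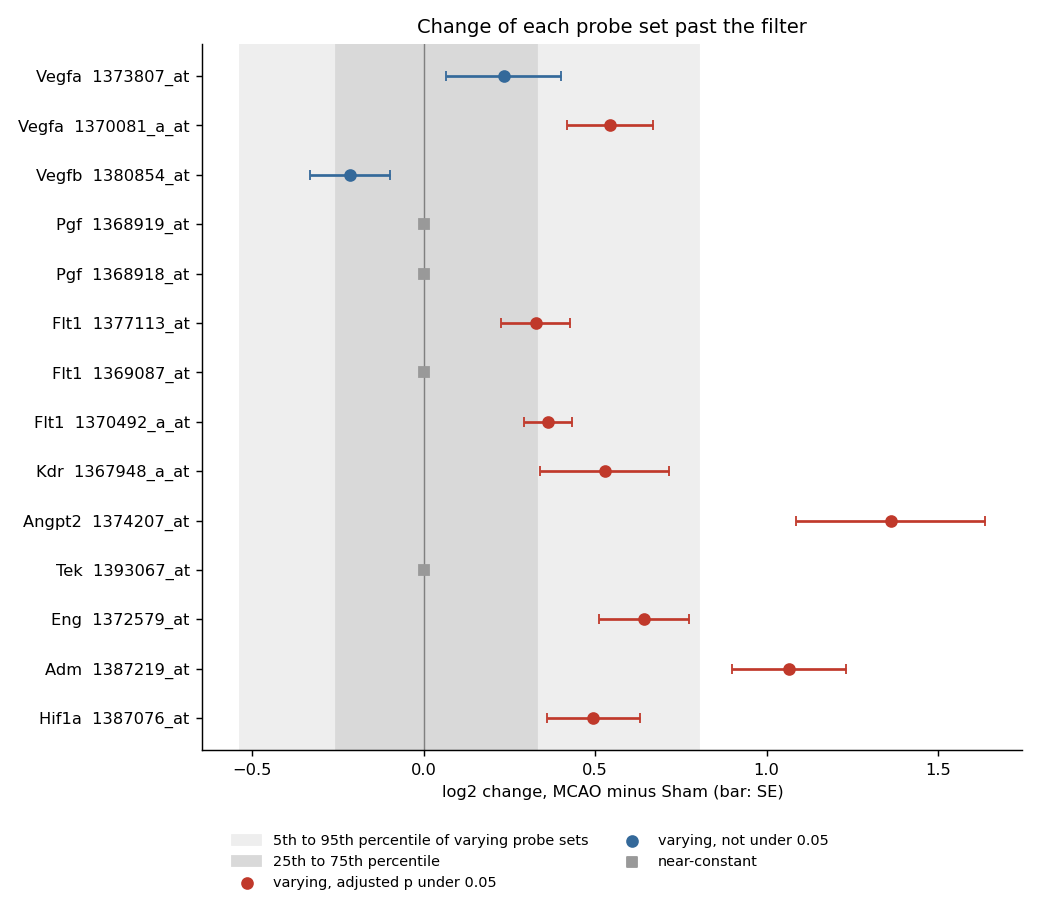
Log2 change, MCAO minus Sham, with SE, of the 14 probe sets past the filter. Grey bands give the spread of the change over all 8444 varying probe sets, whose 95th percentile was 0.80. Angpt2 at 1.36 and Adm at 1.06 lie beyond it, and grey squares mark near-constant signals.

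Both VEGF receptor genes rose, with different firmness. The brightest Flt1 probe set (Entrez Gene 54251), 1377113_at, had 7.66, 8.08 and 8.30 in MCAO (lowest, median, highest), against 7.70, 7.71, 7.83, 7.73 and 7.85 in the 5 Sham rats. In 6 of 7 MCAO rats it was above every Sham rat, and in MCAO 4 it was below every Sham rat. The change was 0.33 ± 0.10 (SE; limma adjusted p = 0.0249), and the call was lost when Sham 1, Sham 2 or Sham 4 was left out (adjusted p up to 0.0588). Without MCAO 4 the change was 0.40. Probe set 1370492_a_at had 6.95, 7.19 and 7.35 in MCAO, against 6.87, 6.69, 6.85, 6.73 and 6.87 in the Sham rats, with no overlap. Its change was of similar size, 0.36 ± 0.07 (SE; limma adjusted p = 0.00348), and likewise 0.40 without MCAO 4. The third, 1369087_at, read 6.95 on all arrays, and its difference of 0.00035 passed the test (adjusted p = 0.00875) but is not read as a change, as for a Pgf probe set with a difference of 0.00064 (adjusted p = 0.0152).

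Kdr (Entrez Gene 25589) was measured by 1367948_a_at, with 7.75, 8.61 and 8.81 in MCAO (lowest, median, highest), against 7.63, 7.99, 8.07, 7.89 and 7.95 in the 5 Sham rats. The MCAO rats 1, 2, 3, 5 and 6 lay above every Sham rat, and MCAO 4 and 7 lay within the Sham range. The change was 0.53 ± 0.19 (SE; limma adjusted p = 0.0437). This call rested on nearly every array, since it was lost in 10 of the 12 fits that left out 1 array, with adjusted p up to 0.0985. It was kept without MCAO 4 (change 0.64, adjusted p = 0.00533) and without MCAO 7. The other Kdr probe set, 1397868_at, read 6.38 on all arrays and did not pass the filter.

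Eng (Entrez Gene 497010) had 7.56, 7.93 and 8.38 in MCAO (lowest, median, highest), against 7.24, 7.31, 7.30, 7.36 and 7.44 in the 5 Sham rats. With means of 7.97 ± 0.29 in MCAO and 7.33 ± 0.07 in Sham (SD, n = 7 and 5), the groups did not overlap and Eng rose by 0.64 ± 0.13 (SE; limma adjusted p = 0.00439), and by 0.71 without MCAO 4. MCAO 6 was the highest and MCAO 4 the lowest, as for Angpt2 and Kdr.

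Hif1a (Entrez Gene 29560), whose protein is controlled mainly by degradation rather than by transcript level, had 10.59, 11.18 and 11.46 in MCAO (lowest, median, highest), against 10.62, 10.68, 10.62, 10.60 and 10.66 in the 5 Sham rats. The Sham rats lay within 0.1 log2 units of each other, 6 of 7 MCAO rats lay above them, and MCAO 4 lay just below them. Its promoter window held 3 matches to the response element letters. The rise was 0.50 ± 0.14 (SE; limma adjusted p = 0.0152), and it was 0.59 without MCAO 4. By the exact rank-sum test it did not pass (adjusted p = 0.0882), and the same held for Kdr and for Flt1 1377113_at.

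**Figure D3:**
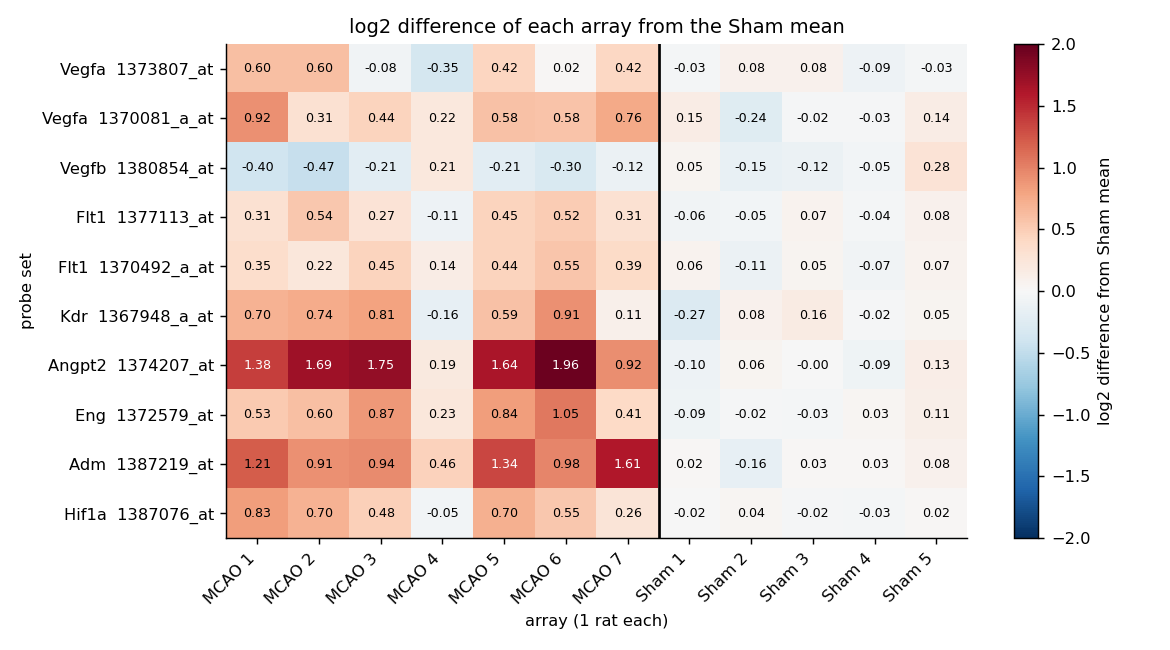
Log2 difference of each array from the Sham mean for the 10 varying probe sets (rows) in the 7 MCAO and 5 Sham rats (columns), with the value printed in each cell. MCAO 6 has the highest cell for Angpt2 (1.96), Eng, Kdr and Flt1 1370492_a_at, MCAO 7 for Adm (1.61), and MCAO 1 for Hif1a and Vegfa 1370081_a_at.

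The order of the MCAO rats differed between members. Angpt2 stood 1.96 above the Sham mean in MCAO 6, 1.75 in MCAO 3, 1.69 in MCAO 2, 1.64 in MCAO 5, 1.38 in MCAO 1, 0.92 in MCAO 7 and 0.19 in MCAO 4. Adm stood highest in MCAO 7 (1.61), MCAO 5 (1.34) and MCAO 1 (1.21), and at 0.98 in MCAO 6. Eng, like Angpt2, was highest in MCAO 6 (1.05) and MCAO 3 (0.87), while Hif1a and Vegfa 1370081_a_at were highest in MCAO 1 (0.83 and 0.92). The likeness of patterns was measured as the root-mean-square difference between the log2 differences from the Sham mean over the 12 arrays, among 6340 varying genes. Nearest to Angpt2 were the adhesion molecule gene Icam1 (0.14), the endothelial tip cell gene Esm1 (0.17) and the cytokine gene Il6 (0.18). Nearest to Eng were Vwa1, a matrix protein gene (0.05), the ETS factor gene Ets1 (0.07) and the transcription factor gene Klf6 (0.08). Nearest to Adm were Cdo1, which oxidises cysteine (0.19), the calponin gene Cnn3 (0.20) and the syndecan gene Sdc4 (0.22). This measure picks genes with a rise of similar size and depends on that size. The distances are therefore not compared between members.

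Whether members changed by unequal amounts was tested within arrays for 4 chosen pairs of ligands, receptors or a regulator and its target, out of the many that the 8 varying genes allow. Adm rose more than Hif1a, by 0.57 on the log2 scale (exact two-sided permutation test over 792 splits, p = 0.00379, adjusted p = 0.0152 over 4 pairs), and the within-array difference was above all Sham rats in 7 of 7 MCAO rats. Without Sham 2, whose Adm signal was the lowest, the difference was 0.52 and did not pass (exact permutation test, adjusted p = 0.0606). Adm passed the filter only through the MCAO arrays and had a Sham mean of 6.59, against 10.6 for Hif1a. Whether equal changes of RNA give equal log2 changes at such unlike levels was not tested. For Vegfa against Vegfb the difference was 0.45 with the brighter Vegfa probe set and did not pass (exact permutation test, adjusted p = 0.199), and 5 of 7 MCAO rats lay above all Sham rats. With Vegfa 1370081_a_at in its place, a choice made after the values were seen, it was 0.76 (exact permutation test, adjusted p = 0.0177, 6 of 7 MCAO rats above all Sham rats). MCAO 4 had the lowest difference with the brighter probe set (-0.56), so leaving it out had to enlarge the mean difference. Without it the difference was 0.62 (exact permutation test, adjusted p = 0.0303). This choice of array was also made after the values were seen and adds no independent evidence. The changes of Flt1 and Kdr (difference -0.20, adjusted p = 0.199) and of Eng and Kdr (0.12, adjusted p = 0.323) were not shown to differ by the exact permutation test. In MCAO the within-array difference of Flt1 and Kdr spread from -0.53 to 0.20, and that of Eng and Kdr from -0.18 to 0.38.

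**Figure D4:**
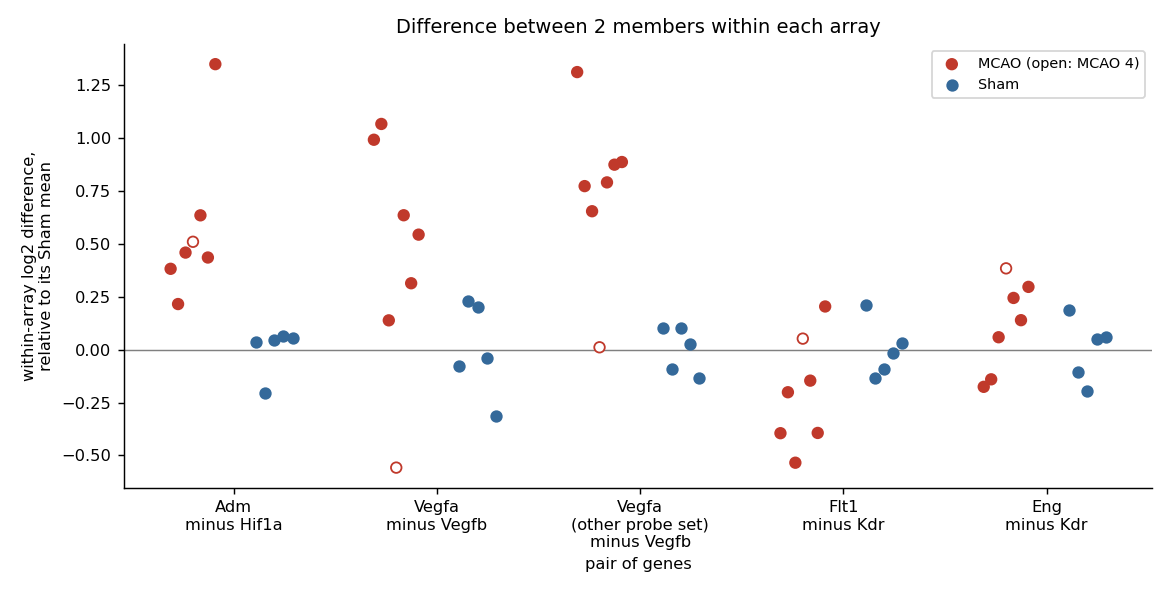
Within-array log2 difference between 2 genes relative to its Sham mean, for MCAO rats (left of each pair) and Sham rats (right). The Adm minus Hif1a difference is between 0.22 and 1.35 in MCAO and between -0.20 and 0.06 in Sham. The open circle is MCAO 4.

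Genes that work with the members were described from lists of the same pathways, by how many varying genes rose or fell. These counts stand beside the 35.2% of all varying genes that rose and the 34.1% that fell, and beside a median change of 0.02. Of 6 varying genes for adrenomedullin receptor components and relatives, 4 rose and 1 fell, with a median change of 0.37. Calcb, 1 of the 4 that rose, exceeded the filter in 7 MCAO arrays and in 0 Sham arrays. It therefore entered the test through MCAO alone. Ramp2, which turns Calcrl into an adrenomedullin receptor, rose by 0.35 ± 0.12 (SE; limma adjusted p = 0.0329), and Ramp1, which makes it a receptor for the related peptide CGRP, fell by 0.35 (limma adjusted p = 0.0268). The call for Ramp1 was lost without MCAO 5, Sham 1, Sham 4 or Sham 5 (adjusted p up to 0.0613). The scavenger receptor gene Ackr3 rose by 0.39 ± 0.09 and the CGRP gene Calca by 0.87 ± 0.23 (SE). Calca did not pass by the exact rank-sum test (adjusted p = 0.0615), and its change was 0.43 when averaged with a near-constant probe set of the same gene. Both Calcrl probe sets were near-constant.

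Among the remaining VEGF and angiopoietin families, 3 of 8 tested genes of other VEGF ligands and receptors varied, with a median change of 0.10, and so did 2 of 5 of other angiopoietin and Tie genes. Of all tested genes 52.2% varied. The co-receptor gene Nrp2 rose by 0.22 ± 0.06 (SE; limma adjusted p = 0.0147), the semaphorin receptor gene Plxna1 fell by 0.37 (limma adjusted p = 0.00403), and Nrp1 had a change of 0.10 with its brighter probe set (adjusted p = 0.372) and of 0.22 with the other (limma adjusted p = 0.00556, over probe sets). Vegfc and Flt4 were near-constant, Vegfd did not pass the filter, and the same held for Angpt1. Angptl4, an angiopoietin-like gene of lipid metabolism and hypoxia, had 8.21, 8.96 and 9.56 in MCAO (lowest, median, highest) and 7.21 to 7.64 in Sham. It rose by 1.48 ± 0.20 (SE; limma adjusted p = 0.00099), more than any of the 10 axis genes. Ptprb, the endothelial phosphatase that acts on Tek, had a log2 difference of -0.21 with its brighter probe set, short of the threshold (limma adjusted p = 0.0514), although it passed under all 3 other scalings of the arrays (adjusted p between 0.0265 and 0.0356). A second Ptprb probe set had a change of 0.20 (adjusted p = 0.196, over probe sets), so no direction is given for this gene.

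Of 14 varying endoglin partners in TGF-beta and BMP signalling 6 rose, a share near that of all varying genes (35.2%), and 0 fell (median change 0.34). This count takes the brightest probe set of each gene. Dimmer probe sets of Tgfb2 (0.72), Id2 (0.26) and Smad5 (0.40) rose (limma adjusted p = 0.0329, 0.0348 and 0.00316, over probe sets). The brightest Tgfb2 and Id2 probe sets (0.36 and -0.11) did not pass, and that of Smad5 was near-constant. The ligand gene Tgfb1 rose by 0.39 ± 0.05 and the BMP target gene Id1 by 0.85 ± 0.13 (SE; limma adjusted p = 0.0011 and 0.00153), both without overlap between the groups. Tgfb1 exceeded the filter in 6 MCAO arrays and in 0 Sham arrays, so it entered the test through MCAO alone. Acvrl1, the receptor that Eng assists, had a change of 0.12 ± 0.09 (SE; adjusted p = 0.297).

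Of 16 tested tip cell and sprouting endothelium genes, 7 were near-constant. Of the 9 that varied, 7 rose and 1 fell (median 0.48). The tip cell gene Apln did not pass with either probe set (changes of 0.24 and 0.34, limma adjusted p = 0.296 and 0.184, over probe sets). Esm1 rose by 1.38 ± 0.32, the endothelial nitric oxide synthase gene Nos3 by 0.58 ± 0.09 and Ets1 by 0.68 ± 0.14 (SE), each with all MCAO rats above all Sham rats. Esm1 and Nos3 exceeded the filter in 6 MCAO arrays and in 0 Sham arrays, so they entered the test through MCAO alone. The other 5 of the 7 genes that rose exceeded it in some Sham array. Genes above the filter in 0 Sham arrays made up 28.6% of those that rose here, against 5.74% of all varying genes that rose. The Notch target gene Hey1 fell by 0.28 (limma adjusted p = 0.00302), while Hes1 of the same list rose by 0.47 (limma adjusted p = 0.0185). Dll4 and Plvap were near-constant. The brighter Notch1 probe set was near-constant too, and its other probe set rose by 0.44 (limma adjusted p = 0.00229, over probe sets). Among the angiogenic factors and inhibitors outside the VEGF family, 7 of 12 rose and 2 fell (median 0.39). The growth factor genes Fgf2 (1.03 ± 0.17) and Igf1 (0.45 ± 0.08, SE) rose, and the matrix protein gene Sparcl1 fell by 0.29 (limma adjusted p = 0.00497). Fgf2 exceeded the filter in 7 MCAO arrays and in 1 Sham array. Without MCAO 3 or without Sham 2, 4 rather than 7 of this list rose.

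Among HIF subunits and oxygen sensors, 3 of 6 varying genes rose and 1 fell (median 0.09). Vhl, which marks the Hif1a protein for destruction, rose by 0.51 ± 0.09, and the prolyl hydroxylase gene Egln1 by 0.37 ± 0.06 (SE; limma adjusted p = 0.0026 and 0.00173), both without overlap. Arnt2, a neuronal partner of Hif1a, fell by 0.55 (limma adjusted p = 0.00463), and Epas1 had a change of 0.02 (adjusted p = 0.632). Of 19 varying hypoxia-inducible genes, 7 rose, 4 fell and 8 did not pass, with a median change of 0.07. The share that rose was close to the 35.2% of all varying genes. Of those that rose, Lox exceeded the filter in 0 Sham arrays and Hk2 in 1, so both entered the test through the MCAO arrays. The glucose transporter gene Slc2a1 rose by 0.65 ± 0.10 (SE; limma adjusted p = 0.0017) and the mitophagy receptor gene Bnip3l fell by 0.34 (limma adjusted p = 0.00123), while its other probe set had a change of -0.07 (adjusted p = 0.191, over probe sets). The 4 that fell were 2 without MCAO 1, 3, 5 or 6 or without Sham 1, 2 or 4, and 1 without Sham 3. In MCAO 4 the mean difference of this list from Sham was 0.00, against 0.17 to 0.29 in the other MCAO rats.

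**Figure D5:**
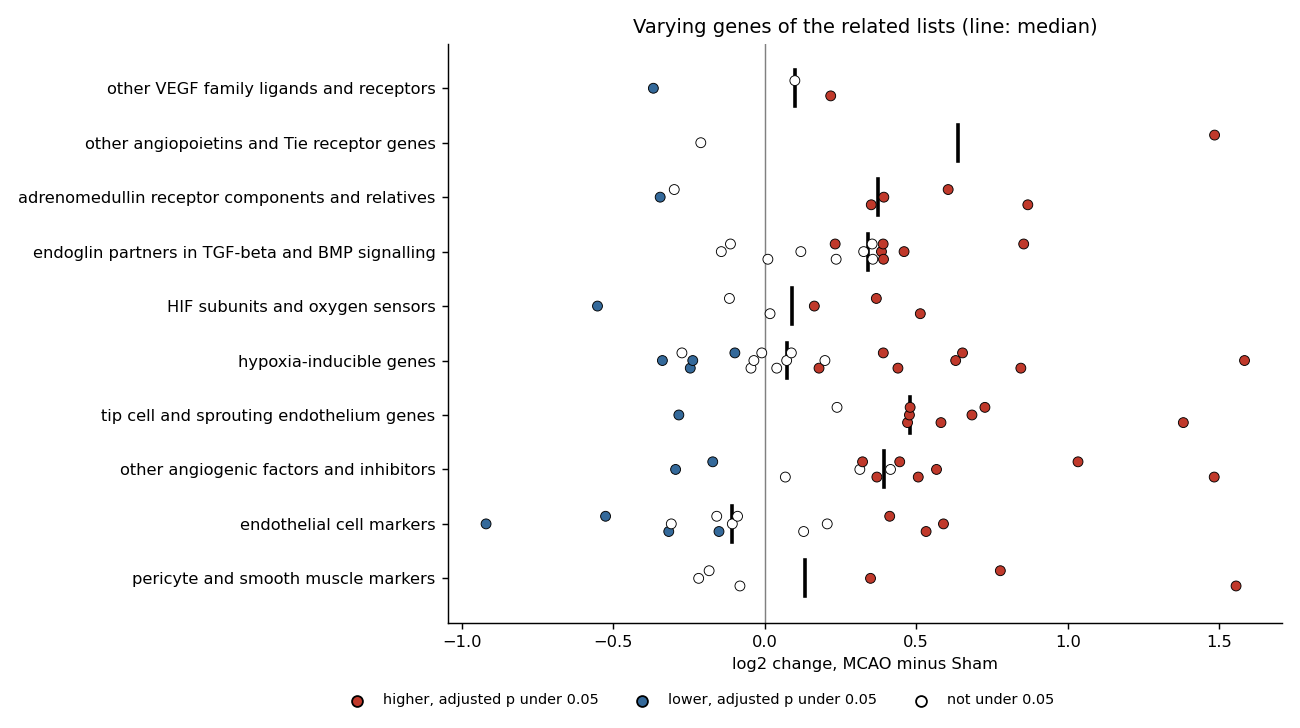
Log2 change, MCAO minus Sham (horizontal axis), of each varying gene in the related lists, with the list median as a line. Of the 9 varying tip cell genes 7 lie to the right and pass the test, where 35.2% of all varying genes rose. A further 7 tested tip cell genes were near-constant and are not shown. Endothelial cell markers lie on both sides (3 rose, 4 fell).

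The receptors and Angpt2 are known mainly from endothelial cells, so markers of those cells are set beside them. Of 13 varying endothelial markers 3 rose, 4 fell and 6 did not pass, with a median change of -0.11. Leaving out 1 array gave 3 to 4 that rose and 2 to 4 that fell. The adhesion genes Pecam1 (0.41 ± 0.11) and Esam (0.59 ± 0.12, SE) rose, and the transporter genes Slco1a4 and Abcb1a fell by 0.92 and 0.53. Cldn5, the main tight junction gene of brain vessels, had a change of -0.16 ± 0.08 (SE; limma adjusted p = 0.153). The mean difference of the whole list from Sham lay between -0.23 and 0.09 in MCAO and between -0.16 and 0.11 in Sham. Of 6 varying pericyte and smooth muscle markers 3 rose, with a median change of 0.13. Tagln (1.56) and Des (0.78), both of contractile cells, had the largest changes, and Myh11, Rgs5 and Abcc9 had changes of -0.22, -0.18 and -0.08 that did not pass. The list's mean difference lay between 0.15 and 0.56 in MCAO, against -0.19 to 0.11 in Sham. Of 9 varying microglia and macrophage markers 7 rose and 2 fell, with mean differences of 0.43 to 0.99 in MCAO and -0.06 to 0.15 in Sham. The markers thus did not move together. P2ry12 fell by 1.26 and Tmem119 by 0.52 (limma adjusted p = 0.00146 and 0.00222), each with all MCAO rats below all Sham rats. Of those that rose, Cd14 (3.13) exceeded the filter in 0 Sham arrays and Itgam in 1, so both entered the test through the MCAO arrays. Of 10 neutrophil markers 6 were on the array and 3 passed the filter, and the 2 that varied, S100a8 and S100a9, rose by 0.99 and 1.65, though neither exceeded the filter in any Sham array. Of 9 varying astrocyte markers 6 fell and 1 rose, Gfap, by 1.91 (limma adjusted p = 5.2e-05). The brightest Aqp4 probe set was near-constant, and 2 others had changes of 0.75 and -0.32 (limma adjusted p = 0.013 and 0.0502, over probe sets). Of 10 neuron markers 6 fell and 0 rose. Of 6 varying oligodendrocyte markers 2 fell and 0 rose, and leaving out 1 array gave 0 to 2 that fell and 0 to 1 that rose. The part of these cell types in the changes of the axis genes was not tested.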

How the data were processed

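Expression was measured on 1 oligonucleotide array per rat, from biotin-labelled cRNA made from 100 ng of total RNA, per the labels' protocols. The deposited table, made by the authors, holds log2 signals. The log base was judged from the range of values. How the background was corrected and the arrays normalized is not given in the sources used here. Array medians differed by 0.05, so values were used as deposited. Symbols came from the array annotation, updated by Entrez ID for 20764 of 20832 single-gene probe sets. Of the others, 436 had several genes and 9780 none.

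MCAO was tested against Sham by limma 3.58.1 (R 4.3.3, eBayes with a trend, two-sided p), adjusted by Benjamini-Hochberg over 17250 probe sets and over 12157 genes (highest-mean probe set each) above the 25th percentile of all signals in at least 5 arrays. Member adjusted p-values refer to probe sets, those of list genes to genes. The fit was tested on simulated data. Member pairs were compared by exact permutation. P-values measure the spread between rats. The controls of MCAO 6 stand out of order in the table and were realigned for the actin values. The members and lists were chosen with earlier results of these data known. Named list genes were the 2 with the strongest statistic per list and the strongest of the minority direction; other list genes were picked after their values were seen. Alternatives covered scaling, filtering, probe set choice, eBayes settings, array weights, the replicate block, rank-sum tests and leaving out each array.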

Additional observations from a re-analysis of the deposited data

Results flagged for a closer look

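Flt1 probe set 1377113_at in MCAO 4 had a log2 signal of 7.66, with the next MCAO rat at 8.04, a gap of 0.588 of the group's range. Adm in Sham 2 had a signal of 6.43, with the next Sham rat at 6.61, a gap of 0.75 of the range. Both were picked because a single array lay far from the rest of its group. Of 20 groups examined (10 probe sets in MCAO and in Sham), 2 were picked, and chance picks about 1 in 20. Without MCAO 4 the Flt1 change was 0.40, and without Sham 2 the Adm change remained called (adjusted p at most 0.00698 over all 12 fits without 1 array).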

How the results depend on the processing

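Angpt2, Adm, Eng, Vegfa 1370081_a_at and Flt1 1370492_a_at stayed higher and past the threshold under every alternative run that tested them. With the replicate block, which uses the 10 arrays whose numbers both groups share, 3 member genes and 5 member probe sets rose, 3124 genes (2779 varying) and 4064 probe sets changed in all, against 5386 (4394 varying) and 7315. Kdr (adjusted p = 0.0927), Flt1 1377113_at (0.111) and Hif1a (0.0598) were lost there. The labels do not say what the numbers mean. Deviations of same-numbered rats correlated at 0.32, 0.54, -0.34, -0.05 and 0.16, and 2 of 5 Sham rats correlated best with their own number. Whether same-numbered rats shared a batch was not tested, and these 5 pairs are too few to decide it. The exact rank-sum test called 3 member genes and 5 member probe sets and lost the same 3 probe sets. Leaving out 1 array gave 4 to 6 member genes and 6 to 8 member probe sets higher, and 0 to 1 member genes and 0 to 1 member probe sets lower (Vegfb, without MCAO 4). The Vegfa and Vegfb difference spanned 0.34 to 0.62 without 1 array, was 0.60 (adjusted p = 0.0455) with probe sets averaged and 0.76 with the other Vegfa probe set, chosen after seeing the data. The Adm and Hif1a difference spanned 0.44 to 0.63. The cause of these shifts was not tested, and the replicate block also used fewer arrays. Of 1162 single changes of named genes and probe sets under alternatives, 1099 kept direction and side, 49 lost the call, 13 gained it, 1 turned sign without a call and 0 reversed. Array weights called 10 rather than 6 endoglin partners higher, and 7 rather than 4 hypoxia-inducible genes lower. The block left 3 of 7 tip cell genes and 4 of 7 other angiogenic factors higher, 0 of 4 adrenomedullin receptor genes and relatives higher, and 1 of 4 hypoxia-inducible genes lower. The number of arrays limits what small changes can be seen.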
